A study of Mus musculus with 72 samples.

Results

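The miRNA of mouse liver was compared between mice given 8 Gy and sham-irradiated mice given 0 Gy. The members are the 6 liver miRNA arrays labelled with these doses, 3 mice at 8 Gy (mice 5, 15 and 25) and 3 at 0 Gy (mice 1, 11 and 21), out of 72 arrays in the series, together with the mouse miRNA on them. The array carried 4415 probes for 1881 mouse miRNA. Of these, 390 probes for 223 miRNA were well above background on at least 1 of the 18 liver arrays and were tested, and 4025 probes were not. The mice were female C57BL/6 J of 6 to 8 weeks. Irradiated animals received 1 total-body exposure to X-rays from a small animal irradiator, with the dose given at the body surface, and the tissue was taken after 48 h. Control animals were handled in the same containers without exposure. The series also holds livers at 1, 2, 4 and 12 Gy, lungs of mice at all 6 doses, and mRNA arrays of both tissues.

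A mature miRNA is a short RNA of about the length of the sequences printed below, cut from a hairpin and loaded into an Argonaute protein. It pairs with messenger RNA mainly through its seed, bases 2 to 8, and lowers the stability and translation of the target. miR-34a is a direct transcriptional target of p53, the factor that is stabilised after DNA double strand breaks. miR-142 and miR-223 are made almost wholly in blood cells, miR-142 in all leukocytes and miR-223 mainly in granulocytes and other myeloid cells. In liver, miR-122 makes up most of the miRNA of hepatocytes.

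The mature sequences of the 5 miRNA that passed the test at 8 Gy are shown first, since the main results concern them. They are written 5′ to 3′ with the seed in capitals, as given in RefSeq on GRCm38.p6, where 194 of the 223 tested miRNA had an entry.
miR-34a-5p: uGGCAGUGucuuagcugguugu
miR-142a-3p: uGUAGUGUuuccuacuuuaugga
miR-223-3p: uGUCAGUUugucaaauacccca
miR-494-3p: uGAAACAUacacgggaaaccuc
miR-20b-5p: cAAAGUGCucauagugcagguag
miR-34a-5p lies at chr4:150068473-150068494 on the plus strand, with no other gene span of the RefSeq table over it. miR-142a-3p lies at chr11:87756903-87756925 on the plus strand, where the table also places Mir142b. miR-223-3p lies on the plus strand of the X chromosome (chrX:96242884-96242905) within the span of F630028O10Rik. miR-494-3p lies at chr12:109715367-109715388 on the plus strand, and miR-20b-5p at chrX:52742159-52742181 on the minus strand. None of these 5 seeds is shared between 2 of the 5. The seed of miR-20b-5p is also that of 3 other miRNA tested in liver.
miR-20a-5p: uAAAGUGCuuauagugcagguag
miR-93-5p: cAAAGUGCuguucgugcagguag
miR-106b-5p: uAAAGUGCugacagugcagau
miR-20a-5p and miR-20b-5p differ at 2 of 23 positions, so signal at the probes of one may come from the other.

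A second set of sequences is shown for its base composition, which goes with the differences described further below. Its members were higher in all 8 Gy mice than in all controls, without passing the test against 0 Gy.
miR-5126: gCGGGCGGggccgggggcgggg
miR-3102-5p: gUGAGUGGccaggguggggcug
miR-8110: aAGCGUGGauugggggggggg
miR-211-3p: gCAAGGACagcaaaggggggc
These 4 are rich in G and C. G and C made up 100.0% of the bases of miR-5126, 72.7% of miR-3102-5p, 71.4% of miR-8110 and 66.7% of miR-211-3p, against 34.8% in miR-142a-3p. miR-5126 lies within the span of Dner on chromosome 1, miR-3102-5p within that of Arhgef17 on chromosome 7, miR-211-3p within that of Trpm1 on chromosome 7, and miR-8110 on chromosome 8 outside any other gene span of the table.

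The levels below are log2 spot intensities after background correction and quantile normalization over the 18 liver arrays, and each difference is from a limma fit over all 6 doses with Benjamini-Hochberg adjustment over the 390 probes. A probe was called where the difference was above 1 on the log2 scale in either direction with an adjusted p below 0.05. No spot of the arrays was saturated. The 3 control arrays were hybridised on 1 slide, on which no 8 Gy array lay. Mice 5 and 15 shared another slide, and mouse 25 lay on a slide with the 3 arrays of 4 Gy. The number of probes well above background was 261 to 312 on the control arrays and 314 to 356 on the 8 Gy arrays, and 48 of the tested probes were above background at 8 Gy but on no control array, against 0 the other way. The tissue label was borne out by miR-122-5p, whose level in the controls was 10.24 log2 units above that in the control lungs.

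miR-34a-5p was the miRNA called at 8 Gy, and it rose. With probe A_54_P2499 its level was 8.72, 8.96 and 9.22 in control mice 1, 11 and 21, and 10.06, 10.37 and 10.40 in irradiated mice 5, 15 and 25. The lowest irradiated mouse was above the highest control. The difference was 1.31 ± 0.17 (SE, n = 3 against 3) on the log2 scale, a 2.48-fold rise (limma adjusted p = 2.13e-04). The second probe, A_54_P2498, ran from 7.59 to 8.11 in the controls and from 8.92 to 9.26 at 8 Gy, a difference of 1.28 ± 0.18 (limma adjusted p = 3.52e-04). These 2 probes were the 2 called of 390, or 0.513% of those tested. The call held in each fit that left out 1 of the 6 mice, and was lost only when each array was scaled to the 75th percentile of all its probes, where the median of the tested probes itself moved to 0.42 and no probe was called.

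**Figure D1:**
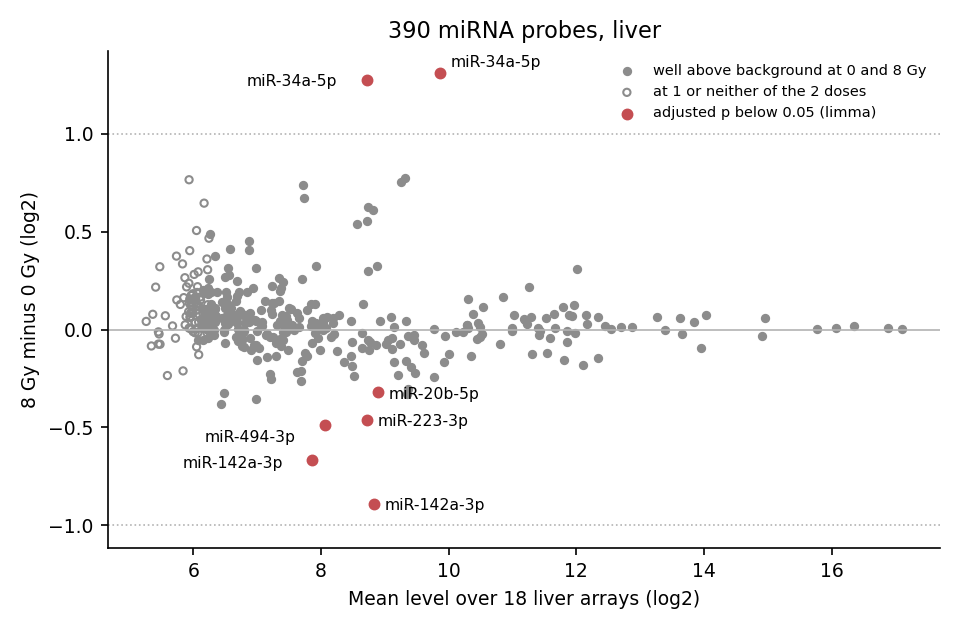
Difference between 8 Gy and 0 Gy in liver (log2, vertical axis) against the mean level over the 18 liver arrays (log2, horizontal axis) for the 390 tested probes. Red points had a limma adjusted p below 0.05, open points were well above background at 1 or neither of the 2 doses, and dotted lines mark differences of 1 and -1. Both probes of miR-34a-5p lie above the upper line and no probe lies below the lower one.

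Across the dose series the level of miR-34a-5p (A_54_P2499) was 8.97 ± 0.25 at 0 Gy, 9.51 ± 0.32 at 1 Gy, 9.74 ± 0.24 at 2 Gy, 10.15 ± 0.08 at 4 Gy, 10.28 ± 0.19 at 8 Gy and 10.53 ± 0.23 at 12 Gy (SD, n = 3). With this probe the means were in the order of the doses, while with A_54_P2498 the mean was 9.15 at 4 Gy and 9.10 at 8 Gy. The neighbours 4 and 8 Gy were not told apart, with a difference of 0.13 ± 0.17 (SE, limma adjusted p = 0.981), nor were 8 and 12 Gy, with 0.25 ± 0.17 (limma adjusted p = 0.279). The difference from the same 3 controls was 1.18 at 4 Gy and 1.56 at 12 Gy, both called by limma (adjusted p = 7.60e-04 and 2.09e-05), while those at 1 and 2 Gy, 0.54 and 0.77, were not past the adjusted threshold (limma adjusted p = 0.508 and 0.0733). miR-34a-5p was the only one of the 9 listed members of the miR-34 family above background in liver. miR-34a-3p, miR-34b, miR-34c and miR-449 of that list were not tested.

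miR-142a-3p fell at 8 Gy and had the smallest p of all probes. With probe A_54_P2308 its level was 9.41, 9.20 and 9.35 in the controls and 8.31, 8.45 and 8.54 in mice 5, 15 and 25. All 3 irradiated mice were below all 3 controls. The level fell by 0.89 ± 0.10 (SE, n = 3 against 3), to 0.540 of the control level, which falls short of the fold limit for a call (limma adjusted p = 3.53e-05). The second probe, A_54_P3691, fell by 0.67 ± 0.10 (limma adjusted p = 8.63e-04). The other arm of the same hairpin, miR-142a-5p, is dim in liver, and its brightest probe gave 6.64 to 6.85 in the controls against 6.39 to 6.54 at 8 Gy, a difference of -0.33 ± 0.16 that did not pass (limma adjusted p = 0.415).

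The mean of miR-142a-3p was below that of the controls at every dose. With A_54_P2308 its level was 9.32 ± 0.10 at 0 Gy, 8.98 ± 0.04 at 1 Gy, 8.99 ± 0.22 at 2 Gy, 8.85 ± 0.02 at 4 Gy, 8.43 ± 0.11 at 8 Gy and 8.43 ± 0.07 at 12 Gy (SD, n = 3). The difference from control at 1 Gy was -0.34 and did not pass (limma adjusted p = 0.508), as with A_54_P3691 (-0.36, limma adjusted p = 0.508). With A_54_P2308 the difference between 8 and 4 Gy was -0.42 ± 0.10 (SE, limma adjusted p = 0.0178), and that between 12 and 8 Gy was 0.00 ± 0.10 (limma adjusted p = 0.992). With A_54_P3691 the difference between 8 and 4 Gy, -0.21, was smaller than that between 1 and 0 Gy and did not pass (limma adjusted p = 0.732). On the slide that held mouse 25 and the 4 Gy mice, mouse 25 was 0.32 log2 units lower than their mean with the first probe (-0.32) and 0.10 lower with the second (-0.10).

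miR-223-3p, miR-494-3p and miR-20b-5p were also lower, by smaller amounts. miR-223-3p (A_54_P2630) gave 9.03, 8.95 and 8.97 in the controls and 8.36, 8.45 and 8.76 at 8 Gy. The groups did not overlap, but mouse 25 lay closer to the controls than to mice 5 and 15. The difference was -0.46 ± 0.10 (limma adjusted p = 0.0206), and the second, dimmer probe gave -0.25 ± 0.10 (limma adjusted p = 0.279). miR-494-3p, from the large imprinted miRNA cluster on chromosome 12, gave 8.32, 8.16 and 8.37 in the controls and 7.74, 7.76 and 7.88 at 8 Gy, a difference of -0.49 ± 0.11 (limma adjusted p = 0.0295). At 12 Gy it was 8.06 ± 0.12 (SD, n = 3), a difference from control of -0.22 that did not pass (limma adjusted p = 0.160). miR-20b-5p (A_54_P3922) gave 9.08, 9.09 and 9.09 in the controls and 8.71, 8.63 and 8.95 at 8 Gy, a difference of -0.32 ± 0.08 (limma adjusted p = 0.0450), and its other probe gave -0.13 ± 0.08 (limma adjusted p = 0.596). In all, 7 probes had an adjusted p below 0.05, which is 1.79% of those tested, 2 of them higher (0.513%) and 5 lower (1.28%) at 8 Gy. Without mouse 5 the count was 15 in place of 7, and without mouse 1, 21 or 15 it was 4. Under 19 alternative settings miR-223-3p, miR-494-3p and miR-20b-5p kept both direction and threshold in 7, 6 and 4, and the sign of miR-223-3p and miR-20b-5p turned in 1.

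**Figure D2:**
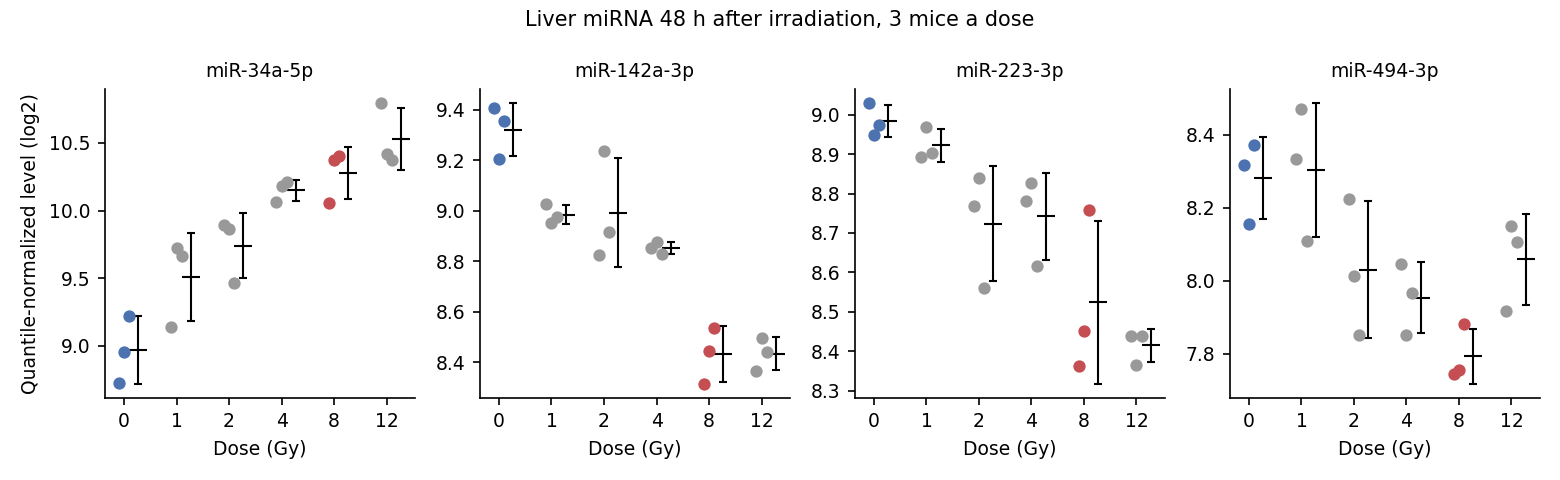
Levels of 4 miRNA in liver (log2, vertical axis) at each dose (horizontal axis, in Gy). Each point is 1 mouse, blue for 0 Gy, red for 8 Gy and grey for the other doses, and the bar beside the points gives the mean and SD (n = 3). miR-34a-5p is higher and the other 3 are lower in every 8 Gy mouse than in every control.

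Slide and dose could be separated only through the arrays of the other doses, since no slide held both 0 and 8 Gy. With slide as a fixed term the difference of miR-34a-5p (A_54_P2499) was 1.69 (limma adjusted p = 4.52e-04) and that of miR-142a-3p (A_54_P2308) was -0.85 (limma adjusted p = 0.00841). With slide as a random block they were 1.54 and -0.86, and the consensus correlation between arrays of a slide was 0.47. The main fit has no slide term and treats arrays of a slide as independent. The differences of miR-223-3p, miR-494-3p and miR-20b-5p were -0.27, -0.22 and -0.27 with the fixed term, none of them past the threshold (limma adjusted p = 0.3895, 0.530 and 0.183).

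The leukocyte miRNA were lower as a group by count and median. Of 8 listed, 6 were above background, 2 passed the test as lower (miR-142a-3p and miR-223-3p) and none as higher, and the median difference of the 6 brightest probes was -0.30, beside 0.03 over the 223 miRNA tested. In 5 of the 6 all irradiated mice were below all controls, as in 8.97% of all tested probes. Apart from miR-146a-5p and miR-181a-5p, the 6 had already been picked out by the study from these same samples. The count, the median and the separation of this list are therefore no independent evidence of a fall of the group. Under scaling to the 75th percentile of all probes the sign of miR-223-3p, miR-342-3p and miR-146a-5p turned, with values of 0.11, 0.14 and 0.22 beside a median of 0.42 over all tested probes. The difference was -0.26 ± 0.18 for miR-342-3p, which is abundant in lymphocytes, -0.21 ± 0.11 for miR-146a-5p, which NF-kappaB induces in activated immune cells, and 0.05 ± 0.13 for miR-181a-5p, best known from thymocytes (limma adjusted p = 0.715, 0.440 and 0.995). miR-150-5p and miR-155-5p were not above background on any liver array.

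Messenger RNA of the same livers, measured on arrays of their own, was read for markers of leukocytes and other cells. Fewer cells of a type and less RNA per cell cannot be told apart in such tissue samples. Of 13 B cell genes tested, 7 were called lower at 8 Gy and none higher, with a median difference of -1.54. Over all 38362 mRNA probes tested 2.21% were called, 1.37% lower and 0.839% higher, and 9.9% had an adjusted p below 0.05. Fcmr, the receptor for IgM, was at 7.01, 7.40 and 7.46 in the controls and 4.21, 3.74 and 3.44 at 8 Gy (limma adjusted p = 2.60e-07). It was above background on all 3 control arrays and on none at 8 Gy, so it was at least 7.80-fold lower. Ms4a1, which encodes CD20, was likewise above background only in the controls and was at least 6.99-fold lower (limma adjusted p = 5.08e-05). Cd79b, a chain of the B cell receptor, was above background in all 6 mice and differed by -2.27 ± 0.27 (limma adjusted p = 2.67e-04). The mean log2 level of the list was 6.37 to 6.69 in the controls and 5.11 to 5.15 at 8 Gy.

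Of 12 T cell genes tested, 4 were called lower and none higher, with a median of -0.56 and a mean level of 7.61 to 7.89 in the controls against 6.92 to 7.10 at 8 Gy. Cd2, an adhesion receptor of T cells, and Cd8b1, a chain of the CD8 co-receptor, were above background on the control arrays only and were at least 3.16-fold and 5.23-fold lower, and Cd3d, a chain of the T cell receptor complex, differed by -1.34 ± 0.24 (limma adjusted p = 1.92e-04, 5.28e-04 and 0.00360). Cd4, Zap70 and Tcf7 gave 0.02, -0.06 and 0.22 and did not pass. Neutrophil genes went both ways, with 1 of 13 called lower (Camp, a granule peptide, at least 2.39-fold, limma adjusted p = 0.00884) and 1 higher (Lcn2, which hepatocytes also make, 1.36 ± 0.27, limma adjusted p = 0.00687), and a median of 0.21. Of these 13, Mmp8, Retnlg, Stfa2l1 and Cd177 were above background on no array of either dose, and Ngp and Ltf on 1 each. None of 10 Kupffer cell genes was called, though 9 of the 10 were below 0, with a median of -0.30. C1qb and Clec4f had adjusted p below 0.05 (-0.61 and -0.45, limma adjusted p = 0.0146 and 0.0189). The part of these cell types in the miRNA differences was not tested. The mRNA arrays had the same limit as the miRNA arrays, with the 0 Gy and the 8 Gy mice on different slides.

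**Figure D3:**
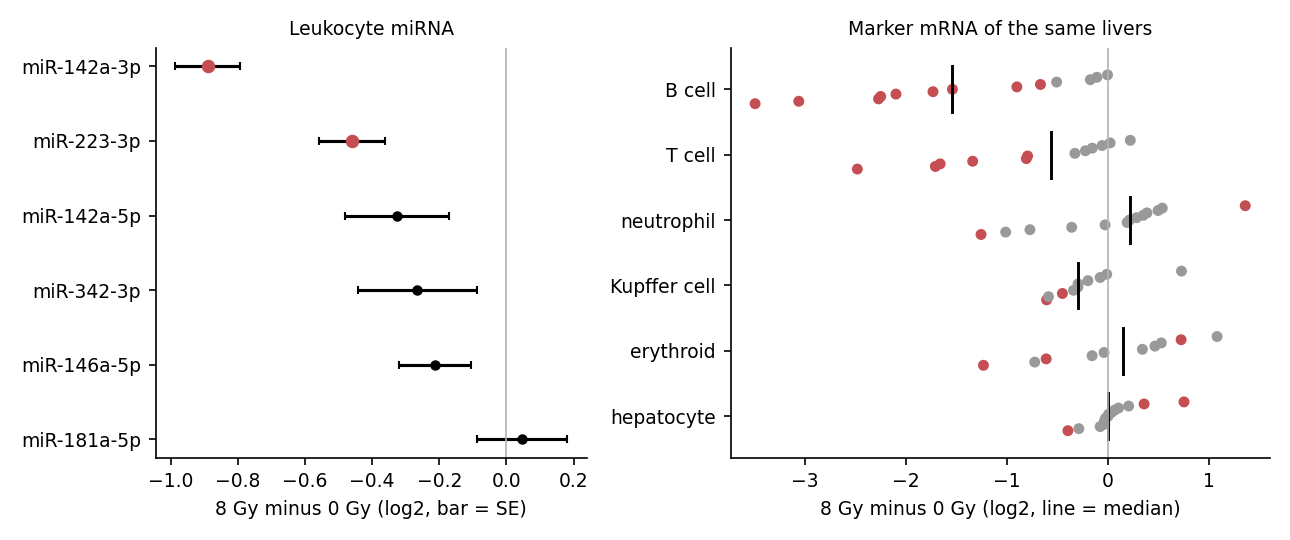
Left, difference between 8 Gy and 0 Gy (log2, horizontal axis) for the 6 leukocyte miRNA tested, by the brightest probe, with the SE as bars. Right, the same difference for marker mRNA of 6 cell types in livers of the same dose groups, each point 1 gene and the black line the list's median. Red marks a limma adjusted p below 0.05. The B cell and T cell medians lie at -1.54 and -0.56 and the hepatocyte median close to 0. The hepatocyte genes are the brightest of the 6 lists, and quantile normalization can hide changes of the brightest probes.

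Hepatocyte and erythroid miRNA did not pass the test in either direction. miR-122-5p was at 16.88 at 8 Gy and 16.88 in the controls, a difference of 0.01 ± 0.06 (limma adjusted p = 0.995). It was among the brightest miRNA, where quantile normalization gives every array nearly the same values, so a change could be hidden. miR-192-5p differed by -0.09 ± 0.09 and miR-194-5p by -0.18 ± 0.07. The last 2 are encoded together and are abundant in liver and gut, and all 3 irradiated mice were below all controls for both. The 4 erythroid miRNA tested ran from -0.07 for miR-144-3p to 0.13 for miR-486a-5p, and miR-451a, the main miRNA of red cells, gave -0.01 ± 0.14. The erythroid mRNA list, which holds no globin gene, was split. Alas2, the first enzyme of haem synthesis in red cell precursors, was called lower (-1.23 ± 0.21, limma adjusted p = 0.00247). Tspan33 gave -0.61 (limma adjusted p = 0.0156) and Ermap, a blood group protein, gave 0.72 ± 0.12 (limma adjusted p = 0.00289). The median was 0.15 over 10 genes. Epb42 and Rhd, both above 0, were above background on no array of either dose, and Rhag, also above 0, on 1. Among 15 hepatocyte genes none was called. Their mean log2 level was 17.82 to 17.86 in the controls, and quantile normalization can hide changes of such bright probes. Tat, which encodes tyrosine aminotransferase, was higher by 0.75 ± 0.15, Ttr, the carrier of thyroxine, lower (-0.40 ± 0.10) and Hpx, the haem carrier, higher by 0.36 ± 0.11 (limma adjusted p = 0.00648, 0.0244 and 0.0486).

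No further member of a list passed the test. No member of the let-7 family passed among 9 tested, with differences from -0.02 to 0.30 and a median of 0.01. let-7i-5p was among the miRNA of smallest p that were lower at 8 Gy through its dimmer probe (-0.22 ± 0.07, limma adjusted p = 0.113), while its brightest probe gave -0.02 ± 0.10. Of the 9 listed miRNA of the miR-17-92 cluster and its paralogues, which promote the cell cycle, 8 were tested, 7 of them below 0 with a median of -0.14, and none of these 8 passed. The list did not hold miR-20b-5p, which lies in the paralogous cluster on the X chromosome and passed with its brighter probe. The smallest p among them were those of miR-19a-3p (-0.24 ± 0.08), miR-20a-5p (-0.23 ± 0.09 with its dimmer probe) and miR-93-5p (-0.19 ± 0.07), all with the 3 irradiated mice below the controls (limma adjusted p = 0.125, 0.231 and 0.244). Of 11 miRNA with roles in liver metabolism or fibrosis none passed, with a median of 0.06, and miR-29b-3p, which targets collagen genes, was the highest at 0.31 ± 0.11 (limma adjusted p = 0.216). The 6 endothelial and stromal miRNA tested ran from -0.15 for miR-126a-3p to 0.14 for miR-143-3p. Apart from miR-34a-5p none of the 7 p53-linked miRNA tested passed, and miR-15a-5p, miR-16-5p and miR-107-3p gave -0.01, -0.12 and -0.08.

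Several GC-rich miRNA were among those of smallest p that were higher at 8 Gy, without passing the test against 0 Gy in the fit used here. miR-5126 (A_54_P00005626) was at 9.19, 9.26 and 9.08 in the controls and 9.54, 9.99 and 10.33 in mice 5, 15 and 25, a difference of 0.78 ± 0.22 (limma adjusted p = 0.0921). miR-3102-5p (A_54_P00005065) was at 7.72, 7.78 and 7.47 and then 7.96, 8.48 and 8.76, a difference of 0.74 ± 0.22 (limma adjusted p = 0.0921). miR-8110 (A_54_P00006481) was at 8.55, 8.56 and 8.39 and then 8.68, 9.08 and 9.41, a difference of 0.55 ± 0.14 (limma adjusted p = 0.0572). In all 3, and in miR-3960 (8.80, 9.35 and 9.62 at 8 Gy against 8.58 to 8.70), mouse 5 was the lowest and mouse 25 the highest of the irradiated mice, and the groups did not overlap. Without mouse 5 all 4 passed, with differences of 0.98 for miR-5126, 0.95 for miR-3102-5p, 0.86 for miR-3960 and 0.74 for miR-8110 (limma adjusted p = 0.0224, 0.0196, 0.0196 and 0.00252). In all, miR-8110 passed under 4 of 19 alternative settings, miR-5126 and miR-3102-5p under 2 each and miR-3960 under 1. Across all tested probes the 3 irradiated mice were above all 3 controls for 52, or 13.3%, and below for 35.

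Against 4 Gy the same miRNA passed. Of 15 probes with an adjusted p below 0.05 between 8 and 4 Gy, 14 were higher at 8 Gy, 3.59% of those tested, and they were 2 probes each of miR-5126, miR-3102-5p, miR-3960, miR-8110, miR-211-3p, miR-3081-5p and miR-135a-1-3p, the last chosen here after its values were seen. The 4 probes of miR-5126 and miR-3102-5p were called (1.03% of those tested), with differences of 1.21 and 1.29 for their leading probes (limma adjusted p = 0.00697 and 0.00362). With these probes the mean at 4 Gy lay below that of the controls, at 8.75 against 9.18 for miR-5126 and 7.10 against 7.66 for miR-3102-5p. The differences from 4 Gy are therefore larger than those from 0 Gy. miR-3960 differed by 0.93 and miR-8110 by 0.63 (limma adjusted p = 0.0177 for both). On the slide shared by mouse 25 and the 4 Gy mice, mouse 25 exceeded their mean by 1.58 for miR-5126, 1.65 for miR-3102-5p, 1.29 for miR-3960 and 0.98 for miR-8110. The count of called probes fell from 4 to 2 without mouse 25 or without mouse 4 of the 4 Gy group, leaving those of miR-3102-5p, and to 0 when arrays were scaled to their 75th percentile over probes above background on all arrays, over all probes, or when the authors' value table was used.

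**Figure D4:**
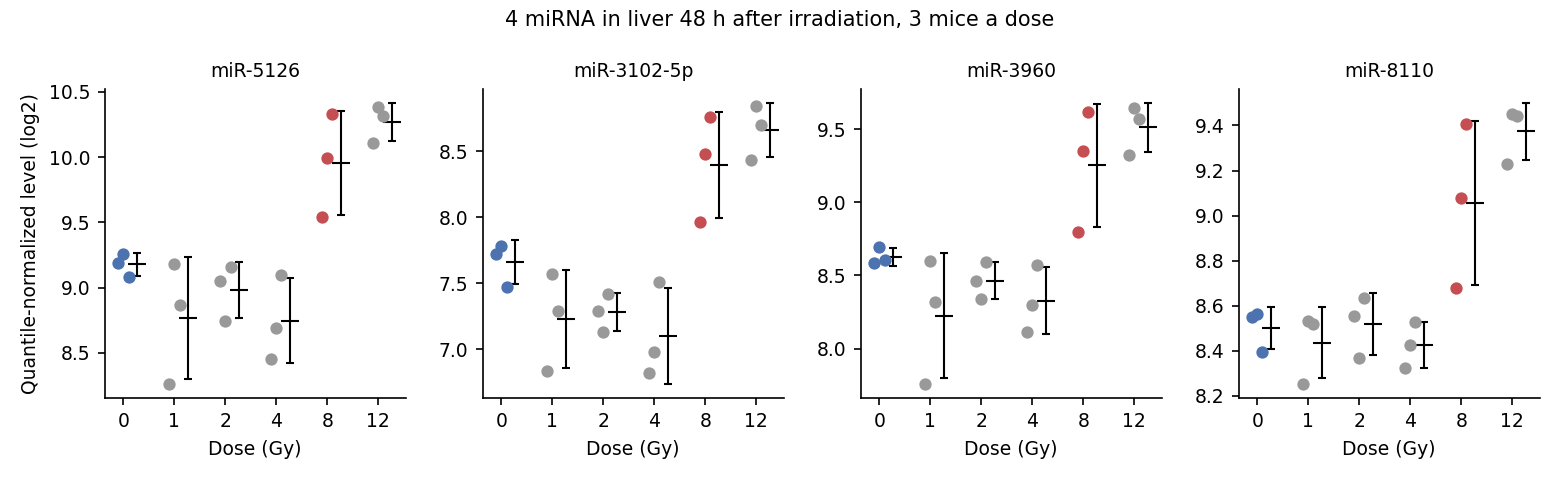
Levels of miR-5126, miR-3102-5p, miR-3960 and miR-8110 in liver (log2, vertical axis) at each dose (horizontal axis, in Gy), with points, colours and bars as in the plot of levels by dose above. From 0 to 4 Gy no group mean exceeds that of the controls except miR-8110 at 2 Gy (8.52 against 8.50), and the means at 8 and 12 Gy lie above it in all 4.

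At 12 Gy these miRNA were higher still by their means. miR-5126 was at 10.27 ± 0.15 and miR-3102-5p at 8.66 ± 0.21 (SD, n = 3), which against the same controls was a difference of 1.09 and 1.00 (limma adjusted p = 0.00368 and 0.00550 in that comparison). On the slide shared by 12 Gy mouse 6 and 8 Gy mouse 25 the order was the other way, mouse 6 minus mouse 25 being -0.22 for miR-5126, -0.32 for miR-3102-5p, -0.29 for miR-3960 and -0.18 for miR-8110. Between 12 and 8 Gy neither miR-5126 nor miR-3102-5p differed past the threshold (limma adjusted p = 0.298 and 0.362). No probe was called between 12 and 8 Gy by limma (0% of 390), while 4 had an adjusted p below 0.05, all lower at 12 Gy, and 150 an unadjusted p below 0.05. Of the 150, 142 were lower at 12 Gy. The median over all tested probes was -0.20, with 320 of 390 below 0. Mice 16 and 26 of the 12 Gy group lay on a slide without 8 Gy liver arrays. They had 242 and 248 probes above background, fewer than any 8 Gy array. The part of dose and of array in this shift was not tested. Without mouse 6, which leaves mice 16 and 26 at 12 Gy, 174 probes had an adjusted p below 0.05, and still none was called.

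The share of G and C went with the difference at 8 Gy over all miRNA with a RefSeq sequence. Across 194 miRNA, which share the 6 arrays and are not independent, the correlation was r = 0.37 (Spearman 0.26). The 16 miRNA with 70% or more G and C had a median difference of 0.18, 15 of them above 0, and the 34 with under 40% had a median close to 0, 16 of them above it. Several of the 16, such as miR-1895, miR-3091-5p, miR-6769b-5p and miR-6931-5p, were above background on no control array. Among miRNA well above background on all 6 arrays only 5 had 70% or more, and all 5 were above 0 with a median of 0.55. They were miR-5126, miR-3102-5p and miR-8110, already shown above for being higher at 8 Gy, and miR-8101 and miR-6366. The last were at 0.10 and 0.0008, so this class gives little beyond the miRNA already picked. Over the 130 miRNA of that kind the correlation was r = 0.35 (Spearman 0.15). Over the 194 r was 0.31 at 12 Gy (Spearman 0.08) and -0.09 at 4 Gy, and these doses share the 3 controls with 8 Gy.

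A few miRNA of small p were near background. miR-21a-3p, the minor arm of the miR-21 hairpin, was on no control array and on 2 of 3 arrays at 8 Gy above background with its leading probe (A_54_P3446), so its level at 8 Gy was at least 1.01-fold higher, and at least 1.19-fold with its brighter probe (limma adjusted p = 0.0921 and 0.130). The major arm, miR-21a-5p, gave 0.07 ± 0.10. miR-3081-5p was at least 1.18-fold higher by the same measure (limma adjusted p = 0.0921). The fold of miR-6931-5p and miR-7018-5p could not be bounded above 1. miR-1839-3p was above background in all 6 mice and gave 7.90, 7.69 and 7.79 in the controls against 8.19, 8.15 and 8.02 at 8 Gy, a difference of 0.32 ± 0.10 (limma adjusted p = 0.0921). The bound sets the mean at 8 Gy against the lowest signal well above background on each control array, or the probe's own where that was higher.

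A list of 12 miRNA named by the study, which were chosen on these samples and so are no independent evidence, had 10 members above background. One of them rose, miR-34a-5p, and 2 fell, miR-142a-3p and miR-223-3p. The list also holds miR-5126, miR-3102-5p, miR-8110, miR-211-3p and miR-3960. For miR-302a-5p and miR-466n-3p no liver array was above background.

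The 8 Gy response was then set against that of the lung. The fit covered 36 arrays of both tissues normalized together, and its levels differ from those above. In lung the 3 control arrays lay on 1 slide and the 3 arrays of 8 Gy on another. No slide held lung arrays of both doses, and no slide term was fitted for this comparison. miR-34a-5p rose in both tissues. Its difference was 1.17 ± 0.13 in liver and 1.02 ± 0.13 in lung with A_54_P2499, and the difference between tissues was 0.15 ± 0.19, with a 95% interval from -0.24 to 0.55 (limma adjusted p = 0.877). miR-142a-3p fell in both, by 0.95 ± 0.12 in liver and by 1.55 ± 0.12 in lung, a difference of 0.59 ± 0.17 between tissues with an interval from 0.24 to 0.94, which did not pass after adjustment over 780 probes (limma adjusted p = 0.134). miR-223-3p gave -0.41 ± 0.10 in liver and -0.90 ± 0.10 in lung (difference 0.49 ± 0.14, interval from 0.19 to 0.78, limma adjusted p = 0.139). miR-494-3p gave -0.59 and -0.50, a difference of -0.09 ± 0.19 with an interval from -0.48 to 0.30.

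The GC-rich miRNA were higher in liver than in lung without irradiation, by 3.03 for miR-5126, 2.83 for miR-3102-5p and 2.40 for miR-8110 (limma adjusted p = 6.56e-14, 1.65e-10 and 2.25e-07). The 8 Gy response was 0.71 ± 0.20 in liver and 0.42 ± 0.20 in lung for miR-5126, 0.89 ± 0.26 and 0.23 ± 0.26 for miR-3102-5p, and 0.57 ± 0.33 and 0.89 ± 0.33 for miR-8110, and none of these pairs differed past the threshold (limma adjusted p = 0.812, 0.549 and 0.917). In lung at 8 Gy miR-8110 (A_54_P00006481) was at 9.69, 8.46 and 9.84 in mice 5, 15 and 25, against 8.25 to 8.55 in the controls. Mouse 15 thus lay within the range of the lung controls. No probe was called for a difference between tissues (0% of 780), 2 had a limma adjusted p below 0.05 (0.256%) and 81 an unadjusted p below 0.05.

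**Figure D5:**
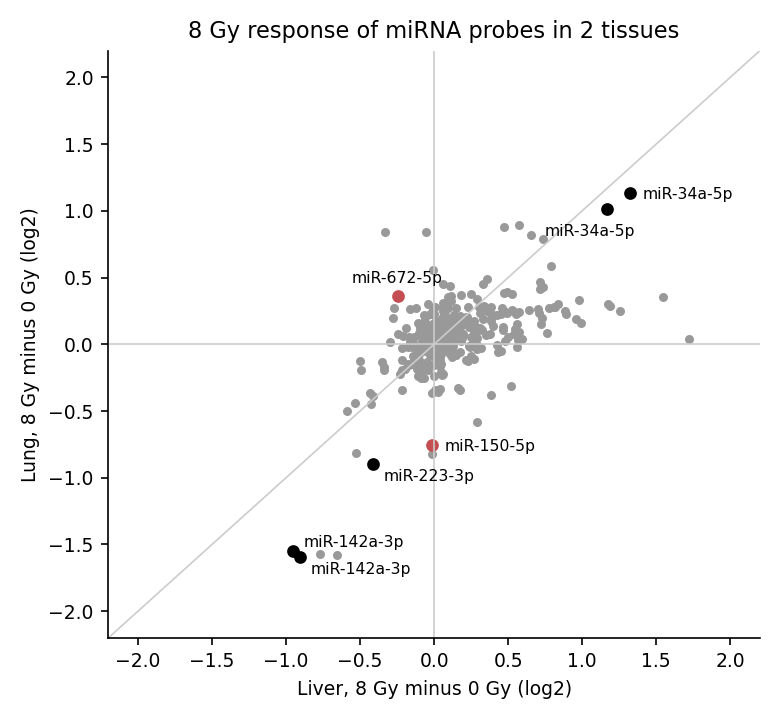
Difference between 8 Gy and 0 Gy in lung (log2, vertical axis) against that in liver (log2, horizontal axis) for 363 probes, those above background on a liver array of either dose and 2 that differed between tissues. The grey diagonal marks equal responses and red marks a limma adjusted p below 0.05 for the difference between tissues. miR-34a-5p lies near the diagonal at the top right and miR-142a-3p below it at the lower left.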

How the data were processed

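RNA of powdered tissue was hybridised to 1-colour Agilent mouse miRNA arrays. The authors deposited scanner files from Agilent Feature Extraction 11.5.1.1, from which median spot intensities, median local background intensities and quality flags were read. The file headers name genome build mm9, and no coordinates of theirs are printed. Intensities were background-corrected with normexp (offset 0), control spots were dropped, spots with outlier flags (1.68% to 8.99% a liver array) were set missing, and arrays were quantile-normalized in R 4.3.3 with limma 3.58.1. Each probe was given the mean log2 value of its spots, and counted as well above background on an array if at least 0.5 of its spots did. The 18 liver arrays were fitted in 1 model of 6 doses without further terms (lmFit, eBayes), and a model of 12 groups was used for liver against lung. mRNA arrays of liver were treated alike, and 67.2% of 38362 probes tested were named through RefSeq accessions. The authors' value table of linear intensities was used as an alternative only. Its scale and any centring are not stated, its column medians ran from 0.01 to 0.386 over the liver arrays, and each of the 18 columns correlated best with its own array (Spearman 0.823 to 0.9995).

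The miRNA named were those with a called probe, the 10 of smallest p in each direction whose 3 arrays at 8 Gy did not overlap those at 0 Gy, and the members of the lists. Members and lists were chosen with earlier results of these data known. Signal over background and 3 mice a group limit the precision, with a median SE of 0.127 on the log2 scale. The labels do not say whether same-numbered liver and lung arrays come from the same mouse, and they were not treated as paired. Their deviations from the group means correlated above 0.1 in 3 of 18 pairs (range -0.16 to 0.26). This cannot decide the question, since tissue and slide differ within each pair. The mRNA value table and lung mRNA files were not used here.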

Additional observations from a re-analysis of the deposited data

Results flagged for a closer look

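The response of 2 miRNA to 8 Gy differed between liver and lung with a limma adjusted p below 0.05. For miR-150-5p, abundant in mature lymphocytes, the response in liver minus that in lung was 0.74 ± 0.11 (SE, 3 mice a group in each tissue, limma adjusted p = 1.93e-04), from -0.02 in liver and -0.76 in lung. For miR-672-5p it was -0.61 ± 0.13 (limma adjusted p = 0.0338), from -0.25 in liver and 0.37 in lung. Neither was above background on any of the 6 liver arrays, where their levels ran from 5.13 to 5.23 and from 5.03 to 5.37, while both were on all 6 lung arrays. A fall of miR-150-5p in liver was therefore not measurable at this signal. No slide held lung arrays of both 0 and 8 Gy. The adjusted p of miR-672-5p rose above 0.05 when the liver and lung arrays of any 1 of the numbers 1, 21, 5, 15 or 25 were left out. It reached 0.283 without number 15. With arrays scaled to the 75th percentile over probes above background on all arrays neither passed (limma adjusted p = 0.998 for both).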

How the results depend on the processing

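Each count was recomputed under other settings. The 2 probes called between 8 and 0 Gy, both of miR-34a-5p, became 0 with arrays scaled to the 75th percentile of all probes (0 also between 8 and 4 Gy), 1 with 1 value per miRNA (2 between 8 and 4 Gy), 4 with the total gene signal of the scanner software, which added miR-142a-3p, miR-135a-1-3p and miR-7018-5p, and 7 with no fold limit. They were 2 in all fits without 1 mouse, and the 4 called between 8 and 4 Gy ran from 2 to 6. These 4 became 0 with the 75th percentile over probes above background on all arrays and 0 with the value table. Probes with an adjusted p below 0.05 between 8 and 0 Gy, 7 in the report, were 13 with a normexp offset of 50. The 0 called between 12 and 8 Gy became 26 with the processed signal, 18 with the value table (53 with an adjusted p below 0.05, against 4) and 1 with the total gene signal, and stayed 0 without any 1 mouse. The 0 called between tissues became 4 when each tissue was normalized alone (20 with an adjusted p below 0.05, against 2), and stayed 0 without any 1 mouse. With mouse number as a random replicate block over both tissues it was 0 (2 with an adjusted p below 0.05, consensus correlation -0.03). The 14 marker genes called became 9 with a normexp offset of 50 and ran from 14 to 15 without 1 mouse. The cause of these changes was not tested.

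Signs turned mostly under the 75th percentile of all probes, where the median of all tested probes was 0.42. There let-7i-5p was 0.37, miR-146a-5p 0.22, miR-194-5p 0.37, miR-19a-3p 0.38, miR-20a-5p 0.33, miR-20b-5p 0.26, miR-223-3p 0.11, miR-342-3p 0.14 and miR-93-5p 0.41 (log2), each below that median. The median of all tested probes was -0.10 with the percentile over probes above background on all arrays and -0.12 with the value table. miR-7018-5p was -0.036 and miR-181a-5p -0.30 under the first of these, and let-7i-5p was 0.034 with the total gene signal. miR-181a-5p was -0.48 with the value table, -0.20 and -0.12 with slide as a fixed and a random block, and -0.062 without mouse 11. miR-142a-3p (A_54_P2308) stayed below 0 throughout, from -1.02 to -0.33, but lost the adjusted threshold in 1 of 19 settings (limma adjusted p = 0.593). Its second probe, A_54_P3691, ran from -1.02 to -0.24 and lost the threshold in 3 of 19.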

Other observations

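Among the tested miRNA 19 seeds were shared by 2 or more. The 4 miRNA with the seed of miR-20b-5p were all below 0 at 8 Gy by their brightest probes, from -0.32 to -0.16. The 3 members of the miR-29 family, which share the seed AGCACCA, were all above 0, from 0.06 to 0.31. The 6 miRNA with the seed of miR-16-5p were split, 3 above and 3 below 0, within -0.12 and 0.10, and the 9 of the let-7 family had 6 above and 3 below. Members of a family can share signal at near-identical probes, and only miR-20b-5p of these passed the test.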
